A study of Mus musculus with 6 samples.

Results

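Genes that are followed as markers of epithelial-mesenchymal transition (EMT) and of phenotype switching in melanoma were examined in the RNA of scrambled control and IFNγR1KO B16 mouse melanoma cells. There were 10 of them, Zeb1, Zeb2, Snai1, Snai2, Twist1, Cdh1, Cdh2, Vim, Sox9 and Tcf4, and the rows of the count tables that carry their Ensembl identifiers were taken from the 55335 rows of each table. The scrambled control group held 3 cultures, labelled as wild type, of cells transduced with a guide against GFP. The IFNγR1KO group held 3 cultures of cells transduced with guides against exon 1 of Ifngr1. Cells of both groups went through CRISPR-Cas9 lentiviral transduction and puromycin selection, were cultured without added interferon, and were seeded overnight before lysis. The study worked with IFNγR1KO lines grown from single cells, and the labels do not say which clone was sequenced or whether the 3 cultures share one, so differences between clones and the loss of the receptor cannot be told apart. The p-values measure the spread between cultures seeded in triplicate, which may be technical.

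EMT is the program by which epithelial cells lose E-cadherin junctions and take on N-cadherin, vimentin and motility. It is driven by zinc-finger repressors of the ZEB and SNAIL families and by the basic helix-loop-helix factor TWIST1, which bind E-box sequences in promoters such as that of Cdh1. Melanocytes come from the neural crest and use the same factors differently: ZEB2 and SNAI2 belong to the differentiated melanocytic state, whereas ZEB1 and TWIST1 are known from the dedifferentiated, invasive state, and an exchange of one pair for the other is called phenotype switching.

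The libraries held between 9402640 and 10579788 counts on genes in scrambled control and between 6698956 and 7409479 in IFNγR1KO cells, so every IFNγR1KO library was shallower. Values are given as CPM, counts per 1000000 counts of the tested genes after TMM scaling, on which 1 count was worth 0.0966 to 0.109 CPM in scrambled control and 0.135 to 0.142 CPM in IFNγR1KO libraries. Ifngr1, the targeted gene, stood at 16.7, 14.3 and 16.6 CPM in scrambled control and at 11.4, 11.5 and 11.5 CPM in IFNγR1KO cells (edgeR log2 fold change -0.47, SE 0.16, adjusted p = 0.0729 by the quasi-likelihood test). Its groups did not overlap but it was not called, and an edit in exon 1 need not lower the RNA. The 9 melanocyte lineage markers were all detected, and summed to between 32998 and 35934 CPM in scrambled control and between 28846 and 33740 CPM in IFNγR1KO cells. The 6 keratinocyte markers summed to at most 0.760 CPM and the 5 endothelial markers to at most 0.217 CPM in any library. The 7 macrophage and leukocyte markers summed to 13.9 to 15.2 CPM in scrambled control and 11.5 to 13.3 CPM in IFNγR1KO cells, of which Lyz2 and Csf1r passed the filter on low counts and Ptprc had at most 0.04 CPM on average.

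Of the 10 genes, 6 had enough RNA to be tested and 4, Zeb1, Cdh1, Snai1 and Twist1, had next to none, and the latter 4 stood at the foot of the order in scrambled control and in IFNγR1KO cells. Because genes differ in length, levels were compared between genes as CPM per kilobase of annotated exons. Vim stood far above the rest at 252 ± 30.7 CPM per kilobase in scrambled control and 263 ± 29.4 in IFNγR1KO cells (SD, n = 3 each), above 98.4% of all genes tested. Cdh2 followed at 8.62 ± 1.57 and 9.12 ± 2.02, Zeb2 at 3.01 ± 0.426 and 3.39 ± 0.529, and Snai2 at 2.56 ± 0.336 and 2.67 ± 0.391 CPM per kilobase. These 4 genes kept their order within each of the 6 libraries, although the group means of Zeb2 and Snai2 lay within their summed SDs of each other. Tcf4, at 0.738 ± 0.186 and 0.646 ± 0.0823, and Sox9, at 0.490 ± 0.0203 and 0.677 ± 0.213 CPM per kilobase, exchanged places, with Tcf4 above Sox9 in 4 of the 6 libraries. Zeb1, Cdh1, Snai1 and Twist1 lay below these, with group means of at most 0.0908 CPM per kilobase. The order rests on exon lengths: with the longest annotated transcript as the length, Tcf4 came to 2.36 CPM per kilobase in scrambled control, close to Snai2 at 2.56, since the annotated exons of Tcf4 add up to 27382 bases and its longest transcript to 8577.

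**Figure D1:**
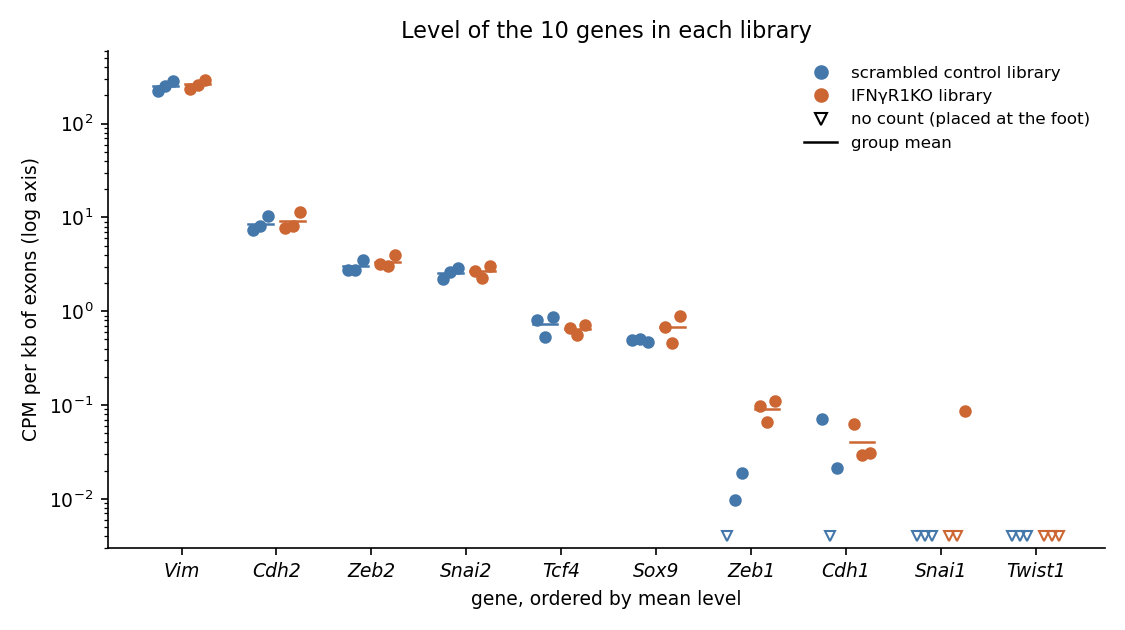
Level of each of the 10 genes in CPM per kilobase of exons, on a log axis, with 1 point per library in scrambled control (blue) and IFNγR1KO (orange) and a bar at the group mean where every library of the group had a count. Libraries without a count are drawn as open triangles at the foot of the axis. Vim stands at 221 CPM per kilobase or more in every library, while Twist1 has no count in any.

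Cdh2 and Cdh1 encode N-cadherin and E-cadherin, the homophilic adhesion receptors that are exchanged in EMT. Cdh2 (chromosome 18 of GRCm38 from 16588877 to 16809246) had 59.2, 65.8 and 83.6 CPM in scrambled control and 62.2, 66.2 and 92.2 CPM in IFNγR1KO libraries. The groups overlapped, with the highest value of each in 1 library, and the log2 fold change was 0.08 (SE 0.18, 95% interval -0.31 to 0.47, adjusted p = 0.817 by edgeR, as for each adjusted p given without a tool). Cdh1 (chromosome 8 from 106603351 to 106670246) had 3, 0 and 1 counts in scrambled control and 2, 1 and 1 in IFNγR1KO libraries. Both groups thus summed to 4 counts, or 0.135 CPM (95% exact Poisson interval 0.0368 to 0.346) in scrambled control and 0.186 CPM (0.0506 to 0.476) in IFNγR1KO cells, where intervals of this kind cover counting error only. Within the 5 libraries with a count of both, N-cadherin RNA exceeded E-cadherin RNA per kilobase by 6.69 to 8.94 on the log2 scale, by 6.69 and 8.94 in scrambled control and by 6.96, 8.12 and 8.54 in IFNγR1KO cells. A difference in Cdh1 between the groups was not detectable at this depth, since the ratio of its counts, 1.38, had a counting interval from 0.256 to 7.38.

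Vim encodes vimentin, the intermediate filament protein of mesenchymal cells and of melanocytes. It lies on chromosome 2 of GRCm38 from 13573927 to 13582826. Its counts were 9641, 12041 and 13843 in scrambled control and 7850, 9139 and 9914 in IFNγR1KO libraries, which is 1194 ± 146 CPM and 1249 ± 140 CPM (SD, n = 3 each). Scaled for depth, the values of the groups interleaved, from 1047 to 1338 CPM in scrambled control and from 1115 to 1394 CPM in IFNγR1KO libraries. The log2 fold change was 0.06 (SE 0.16, 95% interval -0.29 to 0.42, adjusted p = 0.839), so that the interval runs from 0.819-fold to 1.34-fold.

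Of the ZEB factors, large repressors with a zinc-finger cluster at either end, Zeb2 was the abundant one. Zeb2 (chromosome 2 from 44983632 to 45117395, minus strand) had 54.9, 55.4 and 69.9 CPM in scrambled control and 63.1, 60.1 and 79.7 CPM in IFNγR1KO libraries. The ranges overlapped, and the log2 fold change was 0.17 (SE 0.16, 95% interval -0.17 to 0.51, adjusted p = 0.524). Exons of genes on the other strand cover 3.27% of its exonic bases, mostly those of Zeb2os, which had between 50 and 69 counts in a library.

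Zeb1 (chromosome 18 from 5591860 to 5775467) was close to silent in scrambled control and higher, though still low, in IFNγR1KO cells. It had 0, 1 and 2 counts in scrambled control and 7, 5 and 8 counts in IFNγR1KO libraries, which were the shallower ones. These are 0, 0.0995 and 0.193 CPM against 0.994, 0.677 and 1.12 CPM. Every IFNγR1KO library lay above every scrambled control library (p = 0.1 in a two-sided exact permutation test, which is the minimum for 3 against 3). Of all genes tested, 32.6% had groups that did not overlap, in either direction. The summed counts, 3 against 20, give a ratio of 9.17 between IFNγR1KO and scrambled control cells, with a 95% exact counting interval from 2.72 to 48.2. Zeb1 had too few counts to pass edgeR's filter and was therefore not among the genes of the main comparison. Fitted without a filter, it had a log2 fold change of 3.00 (SE 0.89, adjusted p = 0.0104 by edgeR) and was one of the 5.13% of genes called higher there, or of the 2.12% with a log2 fold change above 1 as well. DESeq2's Wald test gave an adjusted p of 0.0492, where 2.43% of genes were called higher in this way. The call was lost in 4 of the 6 fits without a filter that left out a library: scrambled control 1 (adjusted p = 0.0747), IFNγR1KO 10 (0.0573), IFNγR1KO 11 (0.0549) or IFNγR1KO 12 (0.0502). Adjusted p-values from edgeR without the filter are not on the scale of the main comparison. From the main comparison to the fit without a filter, that of Kit went from 4.78e-05 to 9.46e-24 and that of Id3 from 0.00141 to 1.31e-12. That of Ifngr1 went from 0.0729 to 0.0917. Exons of Gm10125 on the other strand cover 1.93% of the exonic bases of Zeb1, and Gm10125 had no count in any library. Zeb2 remained the more abundant of the pair everywhere. Per kilobase it exceeded Zeb1 by 8.16 and 7.54 on the log2 scale in the 2 scrambled control libraries with a Zeb1 count, and by 5.03, 5.51 and 5.19 in IFNγR1KO libraries.

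SNAI1 and SNAI2, known as SNAIL and SLUG, are related zinc-finger repressors, and SNAI2 is needed by melanoblasts. Snai2 (chromosome 16 from 14705852 to 14709385) had 41, 53 and 60 counts in scrambled control and 38, 34 and 44 counts in IFNγR1KO libraries, or 5.17 ± 0.679 CPM and 5.40 ± 0.790 CPM (SD, n = 3 each). The groups overlapped over most of their range, and the log2 fold change was 0.06 (SE 0.23, 95% interval -0.44 to 0.55, adjusted p = 0.905). Snai1 (chromosome 2 from 167538195 to 167542814) had 1 count, in IFNγR1KO 12, and none in the other 5 libraries. Twist1 (chromosome 12 from 33957671 to 33959829), whose product acts as a dimer with E proteins, had no count in any of the 6 libraries. A count of 0 over a group allows up to 0.101 CPM in scrambled control and 0.139 CPM in IFNγR1KO cells, taking 3 counts as the limit.

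The sequences upstream of Snai1 and Twist1, the pair with at most 1 count, are shown beside that of the expressed Zeb2, because the RNA levels of these genes lay so far apart. Each is the 250 bases before the annotated RefSeq start on GRCm38.p6, written 5′ to 3′ along the gene, with capitals marking the E-box letters CAGGTG or CACCTG, the form that ZEB and SNAIL proteins prefer. These windows lie at chr2:45117443-45117692 on the minus strand for the outermost of the 4 Zeb2 starts, and on the plus strand at chr2:167537945-167538194 for Snai1 and chr12:33957421-33957670 for Twist1.
Zeb2: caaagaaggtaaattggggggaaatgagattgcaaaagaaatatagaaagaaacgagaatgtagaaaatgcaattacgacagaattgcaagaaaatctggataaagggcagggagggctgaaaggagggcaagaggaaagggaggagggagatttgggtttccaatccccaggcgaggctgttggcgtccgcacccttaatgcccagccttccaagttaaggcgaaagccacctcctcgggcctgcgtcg
Snai1: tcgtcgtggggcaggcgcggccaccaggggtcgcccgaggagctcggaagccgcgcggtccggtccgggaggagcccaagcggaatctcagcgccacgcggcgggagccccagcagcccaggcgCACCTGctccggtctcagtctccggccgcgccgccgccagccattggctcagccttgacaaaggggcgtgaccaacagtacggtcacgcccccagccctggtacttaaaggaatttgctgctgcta
Twist1: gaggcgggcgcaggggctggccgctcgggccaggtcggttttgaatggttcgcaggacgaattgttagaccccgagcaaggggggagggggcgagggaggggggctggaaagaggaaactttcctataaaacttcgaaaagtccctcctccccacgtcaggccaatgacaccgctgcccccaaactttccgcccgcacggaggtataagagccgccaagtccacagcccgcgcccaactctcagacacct
The Snai1 window held 1 such E-box, with its first base 126 bases before the start, and those of Zeb2 and Twist1 held none. These letters, which read as each other on the opposite strand, were found in 17.2% of 32851 windows of the same length, and the wider E-box CANNTG, which includes them, in 66.2%. The Snai1 window held 27 CpG dinucleotides and that of Twist1 held 18, against 9 for the Zeb2 window shown, 6 to 14 over the 4 Zeb2 windows, 8 for the window of Vim and a median of 6 over all windows. A match of letters is a description and shows no binding.

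Tcf4 and Sox9 encode partners and regulators of this program. Tcf4 (chromosome 18 from 69343356 to 69689079) encodes E2-2, an E protein that dimerizes with TWIST1 and other helix-loop-helix factors. It had 22.3, 14.4 and 24.0 CPM in scrambled control and 18.3, 15.2 and 19.5 CPM in IFNγR1KO libraries. The IFNγR1KO values lay within the range of the scrambled control values, and the log2 fold change was -0.19 (SE 0.20, 95% interval -0.63 to 0.25, adjusted p = 0.586). Sox9 (chromosome 11 from 112782224 to 112787760) encodes a SOXE factor of the neural crest that is set against SOX10 in melanoma. It had 19, 21 and 20 counts in scrambled control and 20, 14 and 26 counts in IFNγR1KO libraries, or 2.03 ± 0.0838 CPM and 2.80 ± 0.880 CPM (SD, n = 3 each). Its IFNγR1KO libraries lay on both sides of the scrambled control libraries, and the log2 fold change was 0.46 (SE 0.32, 95% interval -0.23 to 1.14, adjusted p = 0.378). Sox10, the lineage factor of melanocytes, averaged 425 ± 62.3 CPM in scrambled control cells and 382 ± 77.2 CPM in IFNγR1KO cells (SD, n = 3 each; adjusted p = 0.626).

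None of the 6 genes that passed the filter on low counts, Vim, Cdh2, Zeb2, Snai2, Tcf4 and Sox9, had an adjusted p under 0.05 in edgeR's quasi-likelihood test, and none had an unadjusted p under 0.05. Of all 13642 genes tested, 15.3% had an adjusted p under 0.05 (7.73% higher and 7.62% lower in IFNγR1KO cells) and 5.20% also had an absolute log2 fold change above 1, the limits by which the study called differentially expressed genes (DEGs). The groups overlapped for all 6. Their median log2 fold change was 0.07, against 0.00 over all genes tested. A log2 fold change of 1 lay outside the intervals of Vim, Cdh2, Zeb2, Snai2 and Tcf4 and inside the interval of Sox9. DESeq2's Wald test called none of the 6 either, and of the 10 genes called Zeb1 alone.

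**Figure D2:**
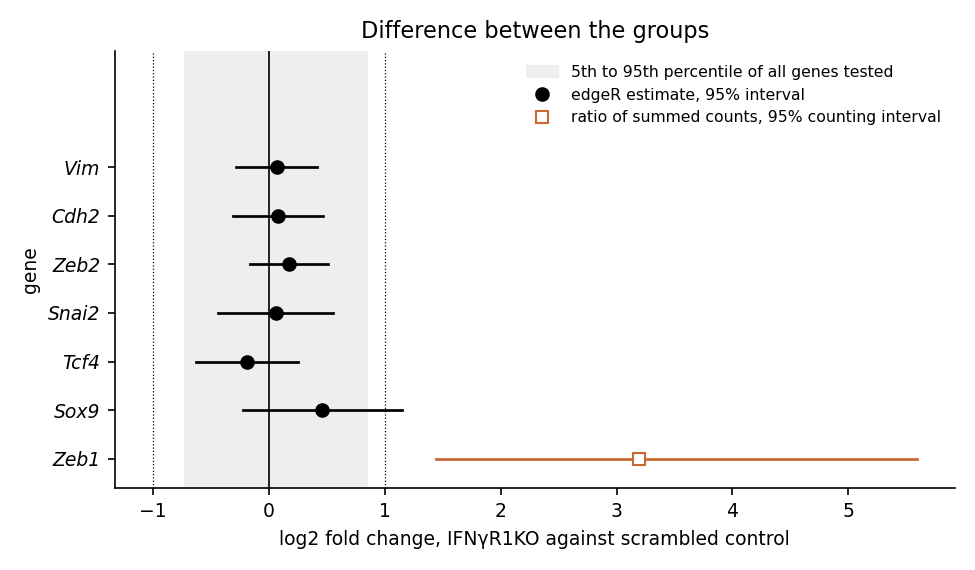
Log2 fold change between IFNγR1KO and scrambled control cells for the 6 tested genes (black, edgeR estimate with its 95% interval) and, for Zeb1, the ratio of summed counts with its 95% counting interval (orange). The grey band spans the 5th to 95th percentile of all genes tested, -0.72 to 0.85, and dotted lines mark a log2 fold change of 1 in either direction. All 6 black intervals cross 0, while that of Zeb1 covers counting error only.

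The spread within the groups was shared between the genes. Scrambled control 3 held the highest value of its group for Vim, Cdh2, Zeb2, Snai2 and Tcf4, and IFNγR1KO 12 held the highest value of its group for all 6 tested genes. Both conditions together were met by 5 of the 6 genes and by 28.7% of all genes tested. Cdh2 lay 0.28 above its group mean on the log2 scale in scrambled control 3 and 0.35 above in IFNγR1KO 12. Zeb2 lay 0.23 and 0.25 above, Tcf4 0.27 and 0.15, Vim 0.17 and 0.16, and Snai2 0.16 and 0.19. Sox9 lay 0.06 below and 0.37 above. In these 2 libraries the counts were also shifted towards genes with long exons: genes with over 8 kilobases of exons lay a median of 0.18 and 0.15 above the group mean, and genes with under 2 kilobases lay 0.16 and 0.14 below. Genes with 4 to 8 kilobases, the class of Vim and Sox9, lay 0.07 and 0.05 above. Genes with 2 to 4 kilobases, the class of Snai2, lay 0.05 below in both. In the other 4 libraries the genes over 8 kilobases lay between 0.04 and 0.13 below the group mean. The part of this shift in the values of the 10 genes was not tested. Without these 2 libraries, a choice made after the shift was seen, none of the 6 genes was called either.

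**Figure D3:**
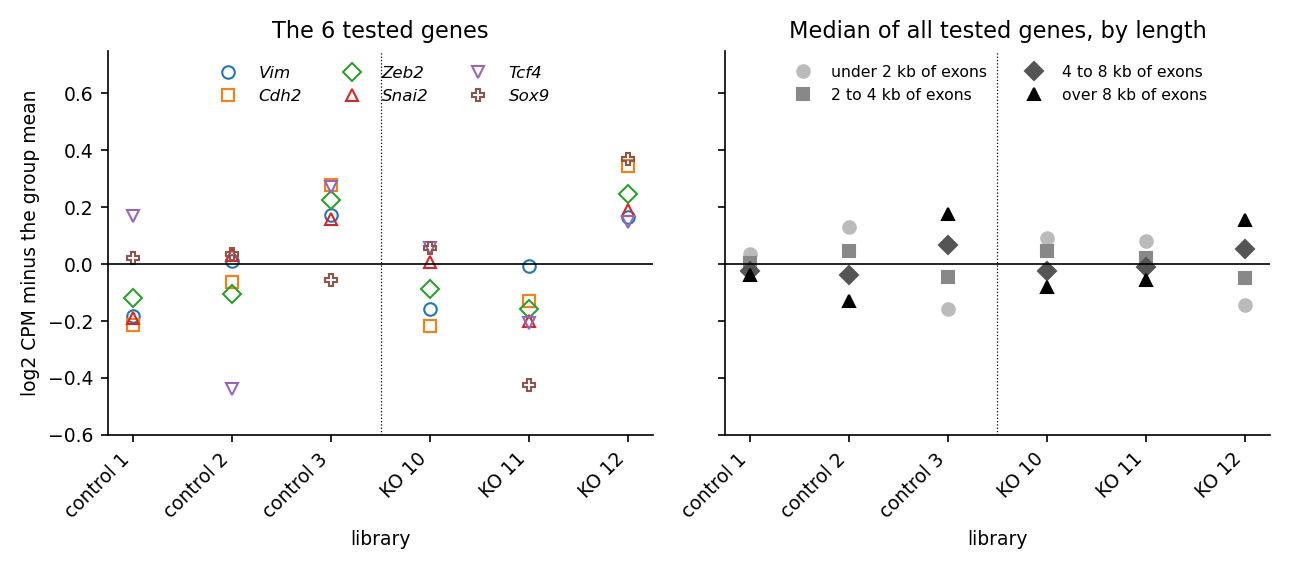
Left, log2 CPM of the 6 tested genes minus the mean of their group, in each library. Right, the median of the same deviation over all tested genes in 4 classes of exon length, after adding 0.5 CPM to each value. In control 3 and KO 12 most of the 6 genes and the class over 8 kilobases lie above 0, and the class under 2 kilobases lies below.

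Other genes of the program were taken from 11 lists that share some members. Of 15 EMT transcription factors, 4 passed the filter on low counts, Zeb2 and Snai2 among them, and none was called.  The share over all genes tested was 15.3%. Of 33 epithelial genes, 10 had no count in any library, among them the claudin genes Cldn1, Cldn3 and Cldn4 and the keratin genes Krt18 and Krt19, named after their values were seen, and 6 were tested. Of these 6, 1 was called, or 16.7% against 15.3% of all genes tested. Pkp2, which encodes the desmosomal protein plakophilin 2, was lower in IFNγR1KO cells, at 4.87 ± 0.933 CPM against 2.65 ± 0.232 CPM (SD, n = 3 each; log2 fold change -0.88, adjusted p = 0.0408 from edgeR). It was called in 1 of the 6 fits that left out a library and not by DESeq2 (adjusted p = 0.101).

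Of 27 mesenchymal genes, 17 were tested, 2 rose and 1 fell, a share of 17.6% against 15.3% of all genes tested. Col1a2 rose from 69.5, 54.6 and 52.5 CPM in scrambled control to 122, 124 and 125 CPM in IFNγR1KO libraries (log2 fold change 1.07, adjusted p = 0.000476), and Col1a1 rose from 1.33 ± 0.357 to 5.20 ± 1.39 CPM (SD, n = 3 each; log2 fold change 1.96, adjusted p = 0.00175). These encode the chains of type I collagen and also stand among the 7 fibroblast markers, whose sum was 57.0 to 75.4 CPM in scrambled control and 129 to 133 CPM in IFNγR1KO libraries. Lum and Thy1 of that list had no count, Dcn and Col3a1 had at most 0.14 CPM on average in either group, and Pdgfra, the remaining marker, had the lower values in IFNγR1KO cells (4.13, 3.18 and 3.48 against 2.42, 1.76 and 2.11 CPM, log2 fold change -0.77, adjusted p = 0.0866), so that Col1a1 and Col1a2 carried the higher sum. Thbs1, encoding the matrix glycoprotein thrombospondin 1, fell by 0.81 on the log2 scale (adjusted p = 0.0454), a call kept in 1 of the 6 fits that left out a library. Of the uncalled genes, Tpm1 was lower in every IFNγR1KO library, at 792 ± 98.6 against 567 ± 41.6 CPM (SD, n = 3 each; log2 fold change -0.48, adjusted p = 0.05003 from edgeR). DESeq2's Wald test called it (adjusted p = 0.00836). Postn was higher in every IFNγR1KO library (log2 fold change 0.74, adjusted p = 0.0577 from edgeR). Both were named after their values were seen.

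Among 21 cadherins and catenins, 8 were tested and none was called, against 15.3% of all genes tested. Ctnnb1, which encodes β-catenin and links cadherins to actin through α-catenin, was lower in every IFNγR1KO library, at 940, 960 and 1068 CPM against 1223, 1318 and 1467 CPM, and missed the threshold (log2 fold change -0.43, SE 0.15, adjusted p = 0.0743 from edgeR). DESeq2's Wald test called it (adjusted p = 0.0133). Exons of Ulk4 on the other strand cover 14.6% of its exonic bases. Ctnna1 and Ctnnd1, for α-catenin and p120-catenin, had log2 fold changes of -0.22 and -0.13 (adjusted p = 0.532 and 0.758).

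Of the intermediate filament genes and their linkers, which include Vim, 5 of 11 tested genes were called, 2 higher and 3 lower, or 45.5% against 15.3% of all genes tested. The number fell to 3 without scrambled control 2 and to 3 without IFNγR1KO 11. Nes, which encodes the neural crest filament protein nestin, had 59.7, 52.6 and 79.3 CPM in scrambled control libraries and 22.4, 24.2 and 33.7 CPM in IFNγR1KO libraries. It fell by 1.25 on the log2 scale (SE 0.19, adjusted p = 0.00125), with no overlap between the groups. The B-type lamin gene Lmnb1 fell by 0.90 and Lmnb2 fell by 0.52 (adjusted p = 0.00713 and 0.0459). Des, encoding the muscle filament desmin, was higher by 0.83 and Sync by 1.03 (adjusted p = 0.00808 and 0.0200), where 27.3% of the exonic bases of Sync lie under exons of Rbbp4 on the other strand. Nes, Lmnb1 and Des were called in all 6 fits that left out a library, Sync in 4 and Lmnb2 in 1.

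Of 7 E proteins and Id inhibitors, partners of the E-box factors, 6 were tested. Of these, 1 was called and was a DEG, a share of 16.7% called against 15.3% of all genes tested. Id3, whose product binds E proteins such as TCF4 and keeps them off DNA, had 39.9, 42.8 and 31.2 CPM in scrambled control and 127, 88.6 and 68.7 CPM in IFNγR1KO libraries. Every IFNγR1KO value exceeded every scrambled control value, and the log2 fold change was 1.32 (SE 0.21, adjusted p = 0.00141), called in all 6 fits that left out a library. The related Id1 and Id2 had log2 fold changes of 0.40 and 0.28 (adjusted p = 0.369 and 0.269), the other E proteins Tcf3 and Tcf12 had -0.24 and -0.23 (adjusted p = 0.430 and 0.381), and Id4 had no count. Of 16 cofactors of SNAIL, ZEB and TWIST, all were tested and 1 was called, or 6.25% against 15.3% of all genes tested. Fbxl14, for a ubiquitin ligase subunit that targets SNAIL proteins for degradation, fell by 0.63 (adjusted p = 0.0260). This call was kept in 2 of the 6 fits that left out a library. Of 8 SOX genes, 6 were tested and none was called, against 15.3% of all genes tested. Their median log2 fold change was 0.33, with Sox4, Sox5, Sox6 and Sox9 above 0 and Sox10 and Sox11 below.

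In the list for TGF-β and BMP signaling, which induces EMT factors in epithelia, 2 of 23 tested genes were called, or 8.70% against 15.3% of all genes tested. The number was 1 without scrambled control 2 or IFNγR1KO 10, and 7 without IFNγR1KO 12. Tgif1, a corepressor of SMAD proteins, rose from 11.0 ± 2.48 to 29.2 ± 3.53 CPM (SD, n = 3 each; log2 fold change 1.41, adjusted p = 0.000482). Tgfbr2, encoding the type II TGF-β receptor, fell by 0.61 (adjusted p = 0.0240), a call kept in 4 of the 6 fits that left out a library.

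The states between which melanoma cells switch were described by a list for each. Of 19 tested genes of the differentiated state, 3 were called lower and none was called higher, a share of 15.8%, near the 15.3% of all genes tested. The number was 1 without scrambled control 3, IFNγR1KO 10 or IFNγR1KO 11. The receptor gene Kit fell from 44.9 ± 4.87 to 11.5 ± 2.86 CPM (SD, n = 3 each; log2 fold change -1.96, adjusted p = 4.78e-05), Met fell by 0.67 (adjusted p = 0.0202), and Oca2, a melanosomal transporter gene, fell by 0.47 (adjusted p = 0.0432), where Met was called in 3 and Oca2 in 1 of the 6 fits that left out a library. Mitf, the master regulator of the melanocyte lineage, had a log2 fold change of 0.37 (adjusted p = 0.109), and Pax3 had 0.37 (adjusted p = 0.0732). Neither was called, but both were higher in every IFNγR1KO library. Slc45a2 (-0.45, adjusted p = 0.0536), Tfap2a, Tyrp1, Pmel, Mreg and Mc1r were lower in every IFNγR1KO library and uncalled. Of these, DESeq2's Wald test called Slc45a2 (adjusted p = 0.00365). Groups did not overlap for 32.6% of all genes tested. The median of the list was -0.16. Of 13 tested genes of the dedifferentiated state, Wwtr1 was higher and Pou3f2 and Thbs1 were lower, a share of 23.1%, and the median was -0.17. The number was 1 without IFNγR1KO 10 and 5 without IFNγR1KO 12. Wwtr1, which encodes the Hippo pathway coactivator TAZ, rose from 20.6, 24.9 and 30.2 CPM to 54.1, 54.6 and 58.6 CPM (log2 fold change 1.14, adjusted p = 0.000608). Pou3f2, for the neural crest factor BRN2, had 4.29 ± 1.06 and 1.67 ± 0.218 CPM (SD, n = 3 each; log2 fold change -1.36, adjusted p = 0.0110).

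**Figure D4:**
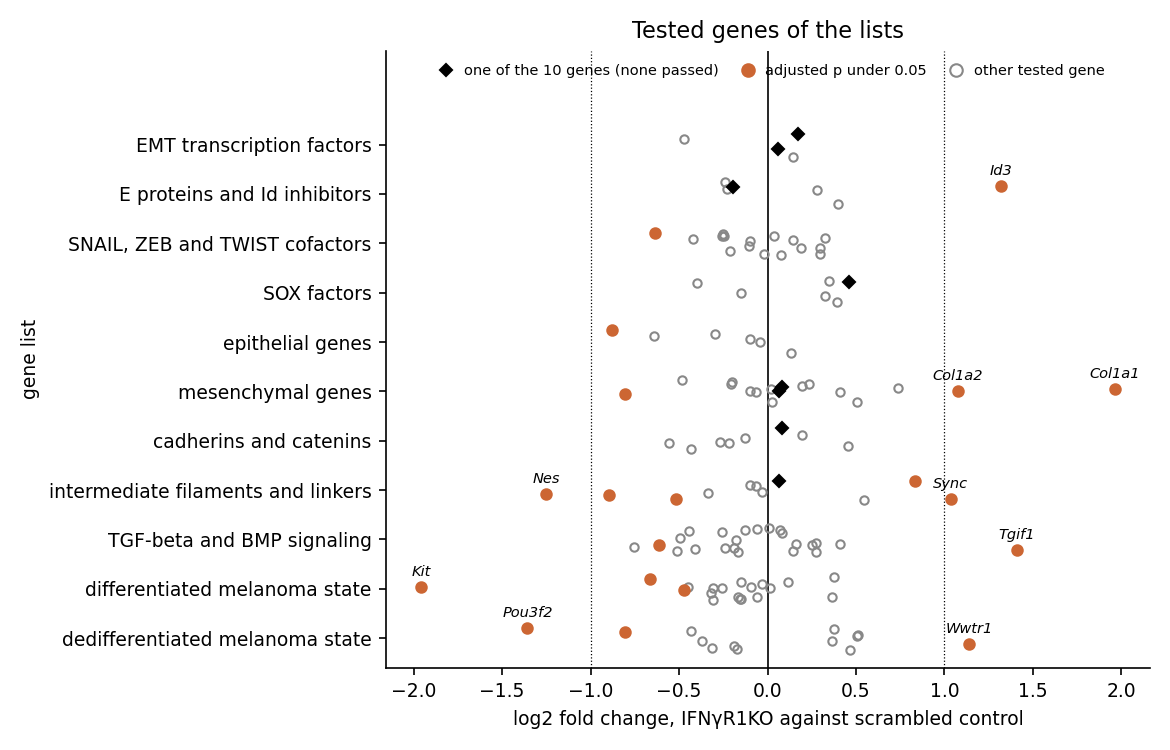
Log2 fold change of the tested genes of each list, with the tested genes among the 10 as black diamonds, genes with an adjusted p under 0.05 in orange and other genes as open circles. Orange genes beyond a log2 fold change of 1, the dotted lines, are named. The black diamonds lie between -0.19 and 0.46.

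The 11 lists together held 18 called genes, and this number was 11 without scrambled control 2, 10 without IFNγR1KO 10, 11 without IFNγR1KO 11, 31 without IFNγR1KO 12 and 38 without both scrambled control 3 and IFNγR1KO 12. Calls over all genes tested moved the same way. They numbered 2093 in the main fit and 1087, 1095, 1028, 2824 and 3064 in these fits, in the same order. Among the list genes added without both libraries were Ctnnb1 (log2 fold change -0.42, adjusted p = 0.00525), Fn1 (0.55, adjusted p = 0.00519), Axl (0.62, adjusted p = 0.0166) and Mitf (0.42, adjusted p = 0.0181). The genes added to the state lists went both ways. In the differentiated list Mitf and Pax3 (0.36) were higher, and Mlana (-0.31), Slc45a2 (-0.45) and Mc1r (-0.38) were lower. In the dedifferentiated list Axl was higher, and Yap1 (-0.38) and Nfatc2 (-0.47) were lower. All genes given from this fit were named after their values were seen.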

How the data were processed

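Poly(A)-selected RNA of 3 scrambled control and 3 IFNγR1KO cultures was sequenced from both ends. For alignment to GRCm38 the authors used STAR 2.7.5a, and the deposited values are whole, unnormalized read counts for each gene from HTSeq 0.11.2. Neither the annotation release nor whether strand was used in counting is given in the sources used here. Between 46.9% and 47.7% of the listed reads of a library fell on no annotated feature. A further 3.76% to 4.61% did not align to a unique place. Both kinds were left out of library sizes.

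Symbols, positions and exon lengths came from GENCODE M21, matched by identifier without version. In R 4.3.3, edgeR 4.0.16 was run on all genes that passed filterByExpr (minimum count 10, minimum total 15), with TMM scaling, the quasi-likelihood test and Benjamini-Hochberg adjustment over all of them; every adjusted p without a named tool is from this fit. Standard errors were taken from the F statistic. DESeq2 1.42.0, whose Wald test the study used, was an alternative. Of the 10 genes, 6 passed the filter and 4 are given by their counts. The tests were run on counts simulated from edgeR's own fitted means and dispersions, with large changes set in genes that passed the filter. That check does not cover small differences, very low counts or the shift between libraries. The genes, the lists and the tests were chosen with earlier results of these data known. All 10 genes and Ifngr1 were named, with the called genes of each list and direct partners of the 10 genes. The plan was to name up to 4 called genes per list, but all 5 of the intermediate filament list were named. Some further uncalled list genes and markers were named as well. Promoter sequences came from RefSeq (GRCm38.p6). Zeb1, Cdh2 and Tcf4, which lie on chromosome 18, were left out of this step. Of the other genes, 4 had a window.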

Additional observations from a re-analysis of the deposited data

How the results depend on the processing

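No paired analysis was run, because the labels give no pairing: the libraries are numbered 1 to 3 and 10 to 12 and share no replicate number. Set side by side in order of number alone, Zeb2, Cdh2 and Vim had the higher value in the IFNγR1KO library each time. The groups still overlapped for these genes, and none of them was called. How many of all genes tested do the same was not counted. Snai2, Tcf4 and Sox9 went both ways. Over all genes tested, deviations from the group mean correlated at 0.41, 0.15 and 0.64 between the libraries set side by side in this order. Scrambled control 2 correlated more with IFNγR1KO 10 (0.17), and IFNγR1KO 11 correlated more with scrambled control 1 (0.28). Whether the libraries belong together in this order was not tested. The number of the 10 genes called higher and the number of DEGs among them were 0 as reported and 0 whichever library was left out. The fits that left out a library kept the filter and tested 6 of the 10 genes, so Zeb1 could not be called in them. Both numbers rose to 1, Zeb1, with DESeq2 and to 1 without the filter on low counts, where Zeb1 is tested. Without the filter its call depended on the library left out. None of the 10 was called lower under any alternative run. The estimate changed sign for Snai2, to -0.060 with thinned counts, -0.040 without scrambled control 1 and -0.057 without IFNγR1KO 12 (highest of the fits that left out a library 0.18), for Cdh2, to -0.024 and -0.12 without these same libraries (highest 0.23), and for Vim, to -0.024 and -0.025 (highest 0.15). No estimate that changed sign was called. Ifngr1 ran from -0.54 to -0.41 and was called under none.

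With one library left out, the genes called over the 11 lists ran from 10 to 31. Over all genes tested, the calls ran from 1028 to 2824 in the same fits. By list, they ran from 0 to 2 for cofactors, 0 to 1 for SOX factors, 0 to 1 for epithelial genes, 2 to 4 for mesenchymal genes, 0 to 2 for cadherins and catenins, 3 to 5 for intermediate filaments, 1 to 7 for TGF-β and BMP signaling, 1 to 4 for the differentiated and 1 to 5 for the dedifferentiated state. Without both high libraries the total was 38, with 3 cofactors, 2 SOX factors, 6 mesenchymal genes, 1 gene of the cadherins and catenins, 5 of TGF-β and BMP signaling, 8 of the differentiated and 6 of the dedifferentiated state. Without the filter, 1 EMT transcription factor, 5 mesenchymal genes and 2 of the cadherins and catenins were called. DESeq2 called 1 EMT transcription factor, 1 gene of the cadherins and catenins and 0 epithelial genes. Without normalization factors, 0 cofactors, 0 epithelial genes and 1 gene of TGF-β and BMP signaling were called. Except where a filter or fewer libraries set the number of genes tested, the cause was not tested.

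With the longest transcript as length, levels in CPM per kilobase in scrambled control and IFNγR1KO cells were 408 and 427 for Vim, 14.4 and 15.2 for Cdh2, 6.58 and 7.41 for Zeb2, and 2.36 and 2.06 for Tcf4. Depth limits Zeb1, Cdh1, Snai1 and Twist1 to statements about counts.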
